A study of Mus with 438 samples.

Results

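The genes described here encode Rab, Arf and Arl proteins, the small GTPases of membrane traffic. They were chosen by name alone, as every symbol of the expression table made of Rab, Arl or Arf, a number and at most 1 letter and 1 further digit. The rule took 59 of 10390 genes, 39 Rab, 14 Arl and 6 Arf genes, and no measured value entered it. By textbook role, 10 act at the cilium and outer segment, 17 at the ER and Golgi, 14 at early and recycling endosomes, 9 at late endosomes, lysosomes and autophagosomes, and 2 in regulated secretion, and 7 were left as other.

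These proteins switch between a GDP-bound form and a GTP-bound form. In the GTP-bound form they sit on a membrane and recruit coats, tethers and motors, and exchange factors and GTPase-activating proteins set the switch. Photoreceptors depend on them in particular ways, since the light-sensing outer segment is a modified cilium that is renewed throughout life by proteins sorted at the Golgi and carried to the base of the cilium, and the synaptic terminal releases vesicles without pause.

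RNA was sequenced from single cells picked under a microscope from C57BL/6 mice. Knockout cones (Trb2Cre-KO:Ai6) and control cones (Trb2Cre-het:Ai6) carried Cre at the beta2 site of Thrb, which encodes a thyroid hormone receptor, with a fluorescent Ai6 reporter, so the controls too have 1 altered Thrb allele. Rods were of the genotype tgNrl:gfp, another line. The groups, superior cells before inferior cells, were 50 and 48 knockout cones at 2 months (2m), and control cones at postnatal day 2 (P2, 26 and 30), P8 (24 and 24), P21 (24 and 24), P60 (26 and 21) and 2m (53 and 50), with 29 rods at 2m. The labels name no animal, which leaves unknown how many animals stand behind a group, and each group was treated as 1 sample. Also used were 3 lists of genomic regions, from ChAP-seq, the pull-down of a biotin-tagged receptor with its DNA, in retinas of E18 embryos (ThrbHAB:BirA, against BirA) and from ATAC-seq of purified P30 cones (Trb2Cre-KO:Sun1-gfp and Trb2Cre-het:Sun1-gfp).

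Depth was 897893 to 3.26e+07 reads per cell, and the 2m collections were deeper, with group medians of 1.09e+07 to 1.83e+07 reads, against 1.74e+06 to 3.25e+06 in the others. Libraries 3 and 14 of P60 superior cones were nearly identical (Pearson r of log2 values 0.996 across genes, next highest pair 0.467) and were counted as 1 cell. The summed level of 11 cone markers was 166.7 CPM (reads of a gene scaled to a fixed number of reads per library) in rods, against at least 1.181e+04 CPM in every cone group, with M opsin at 0 in P2 superior cones. Of the rod markers, 9 were in the table, and their sum was 1.193e+05 CPM in rods, against 991.5 to 9246 CPM in cone groups. Müller glia markers, 7 in the table, summed to 2889 CPM in rods, against 375.7 to 1280 CPM in cones. Thrb itself had 43.2 CPM in superior knockout cones and 33.9 CPM in inferior ones, against 213 and 170 CPM in those of 2m controls. CPM values are not per transcript length, so levels below are compared between groups of cells. Levels of different genes, as in the rows of a figure or the parts of a sum, are not on a common scale.

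**Figure D1:**
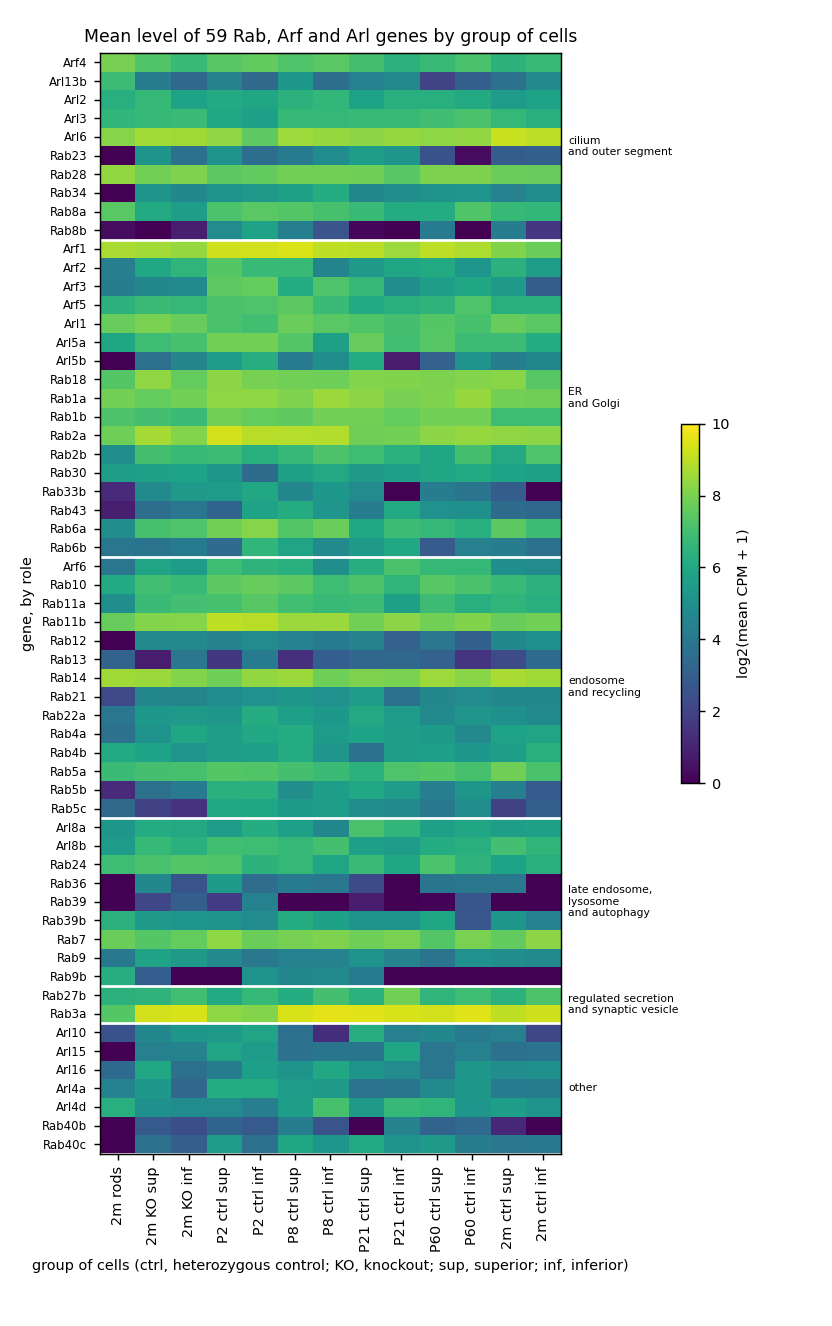
Mean level of each of the 59 genes (rows, by role) in each of the 13 groups of cells (columns), as log2(mean CPM + 1) on a colour scale from 0 to 10. Rows such as Arf1, Rab14 and Rab3a are bright in all cone groups, while Rab39, Rab9b and Rab8b are dark in most, and the rod column is dark for Arl15, Arl5b, Rab12, Rab23, Rab34 and Rab40c.

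The sum over the 59 genes was lower at P21, P60 and 2m than at P2 and P8 in control cones of both zones. Over P2, P8, P21, P60 and 2m it was 7589, 7436, 6395, 6220 and 5853 CPM in superior cones and 7399, 7077, 5983, 6444 and 5534 CPM in inferior cones. Superior knockout cones held 6313 CPM, inferior ones 5852 CPM and rods 4915 CPM. After every cell was thinned to 800000 reads, the median number of these genes with a read was 30 and 31 per superior and inferior cone at P2, 32 and 31 at P8, 25.5 and 23 at P21, 26.5 and 25 at P60, and 28 and 23.5 at 2m. It was 21.5 and 22 in knockout cones and 13 in rods. The number of all genes with a read moved with it, with group medians of 3343 to 4060 at P21, P60 and 2m, against 4313 to 4556 at P2 and P8, and medians of 3124 and 3126 in the knockout and 1678 in rods. The part of gene number in the members' levels was not tested.

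By role, the ER and Golgi genes made up the greater part of that difference in summed CPM, a measure that weighs genes by their level. Their sum was 3478, 3050, 2494, 2399 and 2128 CPM in superior cones from P2 to 2m and 3366, 2872, 2130, 2514 and 1775 CPM in inferior cones. The cilium and outer segment genes summed to between 941.1 and 1227 CPM over the 10 control groups. The sum of both secretion genes was 748.2 and 906.2 CPM at P8, against 384.8 and 384.6 CPM at P2.

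Genes were tested between the later collections (P21, P60 and 2m) and the early ones (P2 and P8) with limma on log2(mean CPM + 1), each collection being the average of its zones. The test had 58 of the 59 genes, all but Rab39, whose mean was under 5 CPM. None passed a Benjamini-Hochberg adjusted p of 0.05 over all genes, where 0.0987% of 10136 genes passed as higher and 0.0888% as lower. At an unadjusted p below 0.05, 0 members were higher and 9 lower (15.5%), against 4.43% and 10.1% of all genes. The members' median difference was -0.42 and that of all genes -0.33, with 15 members (25.9%) above 0, against 33.2% of all genes. Gene by gene, most roles stood close together, with a median difference of -0.57 for the ER and Golgi genes (3 of 17 above 0), -0.53 for the ciliary genes (3 of 10), -0.40 for early and recycling endosomes (3 of 14) and -0.45 for late endosomes and lysosomes (2 of 8), while both secretion genes were above 0. Differences between roles were not tested. When CPM were rescaled with TMM factors, both medians moved, to -0.13 for members and -0.04 for all genes, and values below are to be read against the median of all genes.

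Among the Golgi genes, Arf3, which like Arf1 recruits coat proteins to Golgi membranes, averaged 180, 72.6, 99.9, 47.2 and 40.3 CPM in superior cones at P2, P8, P21, P60 and 2m. In inferior cones its levels at these ages were 200.7, 152, 29.5, 57.9 and 6.74 CPM. Its later collections averaged 5.23 and its early ones 7.15 on the log2 scale, a difference of -1.93 (SE 0.56, limma adjusted p = 0.183), and the 3 later averages lay below both early ones. Rab6a, which directs traffic between the Golgi and the ER, averaged 236, 159, 61.6, 99.4 and 179 CPM in superior cones of the same ages and 292, 215, 114, 78.7 and 114 CPM in inferior ones, lowest at P21 or P60. Its difference was -1.10 (SE 0.38, limma adjusted p = 0.241). Both passed when log values were averaged over cells in place of CPM, with adjusted p = 0.0201 for Arf3 and 0.0187 for Rab6a in limma, a setting in which 3.95% of all genes passed in either direction. Neither passed in any other setting. Over the alternatives in limma, edgeR and DESeq2 the adjusted p reached 0.827 for Arf3 and 0.843 for Rab6a. An average of log values weighs how many cells hold the gene, and Rab6a was above 1 CPM in 29.2% and 37.5% of superior and inferior cones at P21, against 73.1% and 86.7% at P2. Genes of any kind were read less often too. At equal reads the median number per cell was 3571 and 3343 at P21, against 4415 and 4556 at P2. The part of this in the result for Rab6a was not tested.

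Rab2a, needed between the ER and the Golgi, differed by -0.82 (SE 0.32, limma adjusted p = 0.284). In order of age its levels were 644, 471, 227, 304 and 322 CPM in superior cones and 480, 460, 243, 343 and 307 CPM in inferior ones. Arf1 differed by -0.74 (SE 0.36, limma adjusted p = 0.378). Rab33b, a Golgi and autophagy Rab, had a difference of -2.72 (SE 0.88, limma adjusted p = 0.221). This gene was sparse: above 1 CPM in 3.77% and 0% of superior and inferior cones at 2m, against 19.2% and 20% at P2. The same holds for Rab9b, Rab8b and Rab36, whose differences of -2.93, -2.70 and -1.91 had standard errors of 1.22, 1.10 and 0.99. Rab9b was above 1 CPM in at most 12.5% of the cells of any control group.

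In all, 21 of 58 members (36.2%) had later averages that all lay below both early ones, against 25.2% of all genes, and 2 members, Rab27b and Rab9, had them all above, against 8.86%. With TMM scaling the counts were 13 lower (15.3% of all genes) and 7 higher (14.8%), and Arl3, Arl6, Arl8a, Rab14 and Rab18 joined Rab27b and Rab9 among the higher ones. The 13 that stayed lower were Arf1, Arf3, Arf4, Arl4a, Rab11a, Rab11b, Rab2a, Rab33b, Rab5c, Rab6a, Rab8a, Rab8b and Rab9b.

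Of the companion genes, which switch, carry or bind these GTPases, 126 were tested. Of these 1 passed, Rabgef1, the exchange factor of Rab5. In order of age it stood at 129, 93.3, 417, 565 and 409 CPM in superior cones and at 76.4, 131, 473, 434 and 398 CPM in inferior ones. Its difference was 2.08 (SE 0.31, limma adjusted p = 0.0377, higher in all 3 later collections), with adjusted p between 5.62e-15 and 0.3 over the alternatives. Rab5a, its substrate, had a difference of 0.05 (SE 0.35), Rab5b one of -1.11 (SE 0.68) and Rab5c one of -1.79 (SE 0.74). In order of age Rab5c had 63.1, 42.2, 29.1, 15.4 and 2.79 CPM in superior cones and 57.2, 46.8, 26.2, 28.5 and 7.39 CPM in inferior ones, so the P60 and 2m collections, of about the same age, also stood apart.

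Single steps between ages have 1 collection on each side and no test. A gene was counted where both zones moved at least 2-fold in mean CPM + 1 the same way, and the higher side reached a mean of 10 CPM and held the gene above 1 CPM in 25% or more of its cells. At P8 against P2, 1 member was higher (3.14% of all genes), Rab3a, which primes synaptic vesicles for release, and 1 was lower (4.86%), Arl15. Rab3a had 676 and 775 CPM in superior and inferior cones at P8, against 318 and 282 CPM at P2. Superior cones then held 730, 634 and 524 CPM at P21, P60 and 2m, and inferior cones 666, 735 and 623 CPM. It was above 1 CPM in at least 93.3% of cones of every group. At P21 against P8, Arl8a was higher (1.58%), and Arl8b, Arl4a and Rab34 were lower (3.89%).

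Arl8a and Arl8b, close relatives that both link lysosomes to motors, thus stood on opposite sides at that step. The call of Arl8b, like that of Rab34, was lost when ratios were centred on the median of all genes and with a pseudocount of 10, and that of Arl8a was kept in both. Arl8a had 139 and 95.9 CPM in superior and inferior cones at P21, against 49.4 and 24.4 CPM at P8, and Arl8b had 48.5 and 44.3 CPM at P21, against 100 and 133 CPM at P8. At P60 neither stood so far from P8, with Arl8a at 49.98 and 57.6 CPM and Arl8b at 69.6 and 78.4 CPM. At P60 against P21 there were 0 higher members (0.962%) and 2 lower ones (1.02%), Rab23 and Rab6b. Centred on the median of all genes, the share of higher calls among all calls was 52.6% in place of 39.2% at P8 against P2 and 44.4% in place of 28.9% at P21 against P8.

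**Figure D2:**
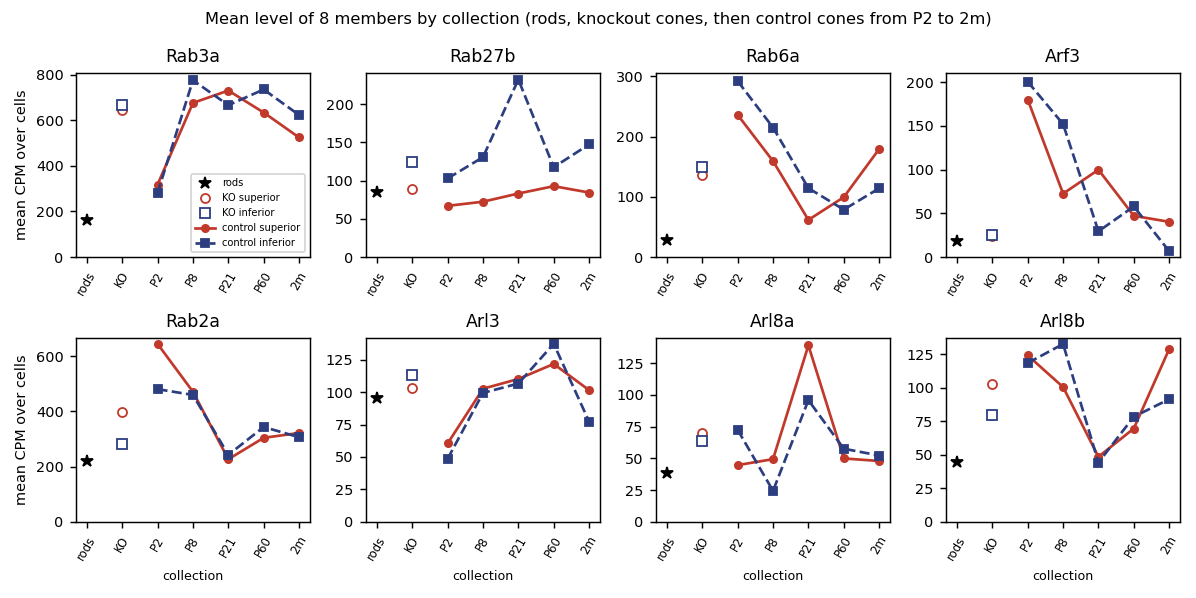
Mean CPM (vertical axis, from 0) of 8 members in rods, knockout cones and control cones from P2 to 2m (horizontal axis), with superior cells in red circles and inferior cells in blue squares. Rab3a stands higher at P8 than at P2 and low in rods, Rab27b is higher in inferior cones in all 5 control collections, and Arl8a peaks at P21 where Arl8b is lowest.

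Superior and inferior control cones were compared over the 5 collections with limma, with the collection as a block. None of the 58 members passed an adjusted p of 0.05 (0% of all genes in either direction, smallest adjusted p of all genes 0.275). At an unadjusted p below 0.05, 6 were higher in superior cones and 1 lower, against 4.88% and 2.12% of all genes. DESeq2 on recovered reads called 0 members higher and 1 lower, against 1.26% and 1.07% of all genes, and edgeR called 0 members and 0 genes. The median member differed by 0.07 and the median gene by 0.10, which was 0.02 under TMM scaling.

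Rab27b, which docks secretory vesicles, was the lower one. It had 67.0, 72.5, 83.2, 92.8 and 84.5 CPM in superior cones at P2, P8, P21, P60 and 2m, against 103, 131, 232, 118 and 148 CPM in inferior cones at the same ages. Superior cones were lower in 5 of 5 collections, as for 2.83% of all genes, and the ranges of the zones did not overlap. The mean difference was -0.81 (SE 0.21, limma p = 0.00415, adjusted p = 0.628), and DESeq2 gave -0.81 with an adjusted p of 0.0201. Flipping the signs of its 5 collection differences in an exact two-sided permutation test gave p = 0.0625, the smallest value possible. Any gene with 5 differences of the same sign gets that value, as Rab34 did, so it adds nothing to the 5 of 5. At P21 and at 2m the share of cells above 1 CPM was lower in superior cones too, with 33.3% against 70.8% and 35.8% against 54.0%. Among knockout cones Rab27b had 88.8 CPM (superior) and 124 CPM (inferior), a difference of -0.47 against -0.80 in 2m controls, and the change was not tested. The other secretion gene, Rab3a, differed by -0.07 (SE 0.11).

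Among the higher ones, Arl5a, a GTPase of the trans-Golgi, differed by 0.69 (SE 0.24, limma adjusted p = 0.702) and was higher in superior cones in 4 of 5 collections. It stood at 232, 158, 201.1, 168 and 115 CPM in superior cones from P2 to 2m, against 239, 50.6, 126, 115 and 72.8 CPM in inferior cones. Arf1 differed by 0.28 (SE 0.12), Rab40c, a Rab that joins a ubiquitin ligase, by 0.91 (SE 0.39) and Arl10 by 1.30 (SE 0.55), each higher in 4 of 5 collections with a limma adjusted p of 0.708. Arf2 (0.83) and Rab36 (1.64) were the other 2. Arl10 and Rab40c were sparse. Arl10 was above 1 CPM in 12.5% and 4.17% of superior and inferior cones at P8 and in 24.5% and 10% at 2m. At equal reads Rab40c was read in 9.71% of 2m control cones. Beside Rab27b, Rab34 was lower in 5 of 5 collections (2.83% of all genes), and Arl1 and Rab39b were higher in 5 of 5 (4.96%). Arl1 and Rab27b kept 5 of 5 under TMM scaling, as did Rab34, and Rab39b did not.

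Most of the cilium and outer segment genes lay close to 0 between the zones, though Rab8b, Rab23 and Rab34 did not. Arl3 and Arl2, which release lipid-modified cargo such as phototransduction proteins from their carriers, differed by 0.12 (SE 0.19) and -0.11 (SE 0.23). Arl6, which brings the BBSome to membranes, differed by 0.18 (SE 0.16), Rab28, a gene of cone-rod dystrophy, by 0.07 (SE 0.14), Arf4, which sorts opsin at the Golgi, by -0.10 (SE 0.20) and Rab8a, which acts in carriers at the base of the cilium, by -0.09 (SE 0.26). The sparse genes of this role were less precise: Arl13b, the ciliary exchange factor of Arl3, differed by 0.10 (SE 0.57), Rab23 by 0.63 (SE 0.58), Rab34 by -0.36 (SE 0.30) and Rab8b by 1.54 (SE 0.80). None had a limma adjusted p below 0.744.

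**Figure D3:**
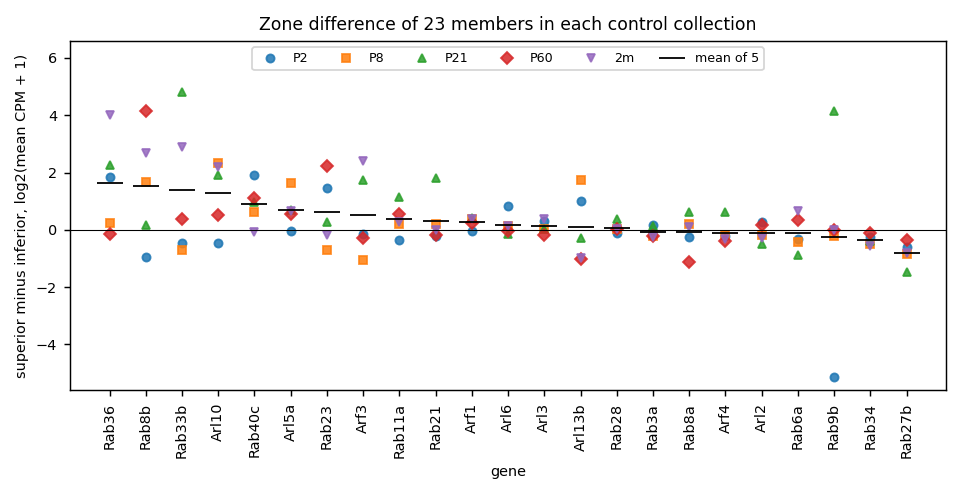
Superior minus inferior difference on the log2(mean CPM + 1) scale (vertical axis) of 23 members in each of the 5 control collections (coloured markers), with the mean as a bar, ordered by the mean. All 5 points of Rab27b and of Rab34 lie below 0, and the points of Rab9b, Rab36, Rab8b and Rab33b spread over several log2 units.

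A change of the zone difference between the early and the later collections was called for 0 members with limma (0% of all genes, and no other tool was run). At an unadjusted p below 0.05 there were 0 members with an increase (3.18% of all genes) and 1 with a decrease (1.84%), Arl13b. Its zone difference averaged -0.76 in the later and 1.38 in the early collections (change -2.14, SE 0.51, limma adjusted p = 0.90), in a gene above 1 CPM in at most 29.2% of the cells of any cone group.

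Knockout and control cones were compared by size alone, against both the 2m and the P60 controls, since the knockout has 1 collection. By that rule 0 members were higher (0.173% of all genes) and 0 lower (0.395%). The median member lay at 0.14 in superior and 0.17 in inferior cones against 2m controls, and at -0.002 and -0.17 against P60 controls, on the log2 scale, where the medians of all genes were -0.01, 0.10, -0.07 and 0.03. Against one control collection alone, 1 member was called in each case. Rab24, an autophagy Rab, was at 140 and 159 CPM in knockout cones (superior, then inferior), against 54.0 and 75.7 CPM in 2m controls (higher, as 1.05% of all genes) and 142 and 90.8 CPM in P60 controls. Rab5c was at 2.93 and 1.70 CPM, against 15.4 and 28.5 CPM in P60 controls (lower, as 1.9%) and 2.79 and 7.39 CPM in 2m controls. The P60 and 2m controls differed from each other in 2 members, Arf6 and Rab5c, both higher at P60 (2.53%), with 0 lower (2.56%).

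Both knockout groups lay above all 4 adult control groups for 6 members (8.15% of all genes), Arl8a, Rab11b, Rab22a, Rab23, Rab33b and Rab9, and below them for 4 (7.19%), Arl4d, Rab21, Rab40c and Rab8a. Most of these gaps were small. With the highest cell of each group left out, 5 of the 6 stayed above (all but Rab33b) and 1 of the 4 stayed below (Rab40c), and 9 members were then above (8.83% of all genes) and 3 below (5.99%). Rab11b, of recycling endosomes, had 278 and 289 CPM in knockout cones (superior, then inferior), against 206 and 230 CPM at 2m and 235 and 275 CPM at P60 in controls. Rab9, which returns receptors from late endosomes to the Golgi, had 53.5 and 41.1 CPM, against 29.6 and 26.9 CPM at 2m and 13.5 and 32.6 CPM at P60. Rab8a had 68.8 and 47.01 CPM, against 104 and 96.7 CPM at 2m and 70.5 and 156 CPM at P60. Rab23, a Rab of Hedgehog signalling, had 34.7 and 12.2 CPM, against 6.74 and 7.68 CPM at 2m and 4.73 and 0.212 CPM at P60. Few cells carry these means, with 10 of 50 superior and 4 of 48 inferior knockout cones above 1 CPM, and without the highest cell of each group Rab23 had 21.9 and 6.98 CPM, against 3.95 and 2.01 CPM at 2m.

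Of the other ciliary genes, Arl6 was at 386 and 385 CPM in knockout cones, between the 570 and 515 CPM of 2m controls and the 316 and 328 CPM of P60 controls. Arl3 was at 104 and 113 CPM, against 101.5 and 77.3 CPM at 2m and 122 and 137 CPM at P60. Rab28 was at 232 and 269 CPM, against 209 and 205 CPM at 2m and 263 and 257 CPM at P60. Rab3a was at 643 and 668 CPM, against 524 and 623 CPM at 2m and 634 and 735 CPM at P60. None of the 126 companion genes met the rule in the knockout.

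Rods have 1 collection and no test. Against both adult control collections, 4 members were lower (10.3% of all genes) and 0 higher (1.51%). The medians of all genes were themselves at -1.02 and -0.82 against superior and inferior 2m controls and at -1.01 and -0.84 against P60 controls, and those of the members at -0.87, -0.30, -0.56 and -0.78. Of all calls 12.8% were higher, and 44.6% were once ratios were centred on the median of all genes. So centred, 4 members were higher, Arf4, Arl1, Arl2 and Rab28 (6.78%, against 5.4% of all genes), and 1 was lower, Rab21 (1.69%, against 6.71%). Of the 4 lower members, Rab21 alone thus kept its call. Against 2m controls alone, 1 member was higher (2.01%) and 8 were lower (13.8%), and against P60 controls alone 0 were higher (3.21%) and 7 lower (17.4%).

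Rab21, which acts on early endosomes, had a mean of 3.62 CPM in rods (lowest 0, median 0.049, highest 41.4), against 23.7 and 24.1 CPM in superior and inferior cones at 2m and 23.8 and 26.99 CPM at P60. Rab3a had a mean of 164 CPM in rods (lowest 0.0546, median 0.382, highest 782), against 524 and 623 CPM at 2m and 634 and 735 CPM at P60. The level read was thus low in a typical rod and as high as the cone means in some. Fewer genes of any kind were read per rod, and the part of this in the level of Rab3a was not tested. Rab6a had a mean of 29.01 CPM in rods, against 179 and 114 CPM at 2m and 99.4 and 78.7 CPM at P60, and Rab11a, of recycling endosomes, 30.2 CPM, against 92.3 and 76.4 CPM at 2m and 116 and 79.2 CPM at P60. In rods Rab6a and Rab11a were each above 1 CPM in 2 of 29 cells (6.90%, exact 95% interval 0.846 to 22.8), Rab21 in 5 (17.2%, 5.85 to 35.8) and Rab3a in 11 (37.9%, 20.7 to 57.7).

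The ciliary genes went both ways in rods. Their median ratio was 0.29 and 0.41 on the log2 scale against superior and inferior 2m cones and -0.05 and 0.17 against P60 cones, above the medians of all genes, and their summed level was 1331 CPM in rods, against 941.1 to 1227 CPM in the 12 cone groups. Rab34, Rab23 and Rab8b lay below the median gene in at least 3 of the 4 ratios, with -4.43, -2.95 and -3.92 against superior 2m cones, and Arl6 lay near it there, at -0.97. For Rab8b the measures went opposite ways. Its ratio against inferior P60 cones was 0.32, and at equal reads 24.1% of rods (10.3 to 43.5) and 12.6% of 2m cones had a read of it. Rods have no test, and the higher means rest on few cells. Rab28 had a mean of 330 CPM in rods but a median of 3.59 CPM (0.67 to 2179), against means of 209 and 205 CPM and medians of 188 and 170 CPM in superior and inferior 2m cones. Arf4 had a mean of 248 CPM in rods with a median of 0.536 CPM, against means of 86.4 and 107 CPM and medians of 12.8 and 0.25 CPM. Arl13b had 114 CPM in rods, where 7 of 29 cells were above 1 CPM (24.1%, 10.3 to 43.5), against 12.5 and 25.4 CPM in 2m cones. Arl6 was at 291 CPM in rods, against 570 and 515 CPM in 2m and 316 and 328 CPM in P60 cones, and Arl3 at 95.8 CPM, against 101.5 and 77.3 CPM and 122 and 137 CPM.

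Rods lay below each of the 12 cone groups for 22 members (37.3%), against 39.6% of all genes, and above each for 6 (9.68% of all genes), Arf4, Arl13b, Rab28, Rab39b, Rab8a and Rab9b. Rab9b shows how little that can rest on, with 74.8 CPM in rods from 1 of 29 cells above 1 CPM. Rab23, Arl15 and Arl5b were at 0 in every rod, and 0 of 29 cells allows a share of up to 10.3% by the limit of 3 cells, or 11.9% by the exact interval used elsewhere here. Rab34, which helps build the primary cilium, and Rab12 had at most 0.0573 and 0.528 CPM in any rod, and after thinning a read in 0 of 29 rods, against 24.3% and 31.1% of 103 cones at 2m.

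**Figure D4:**
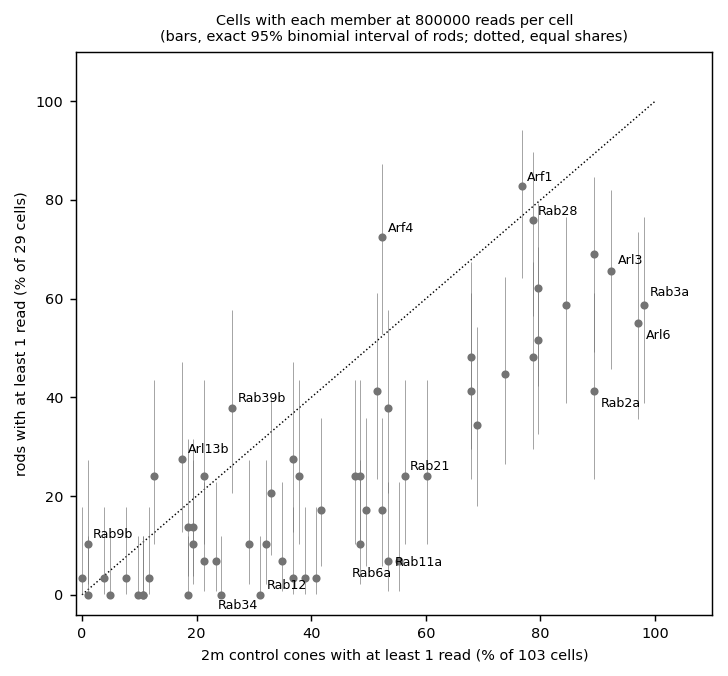
Share of rods with at least 1 read of each member (vertical axis, 29 cells, exact 95% binomial bars) against the share of 2m control cones (horizontal axis, 103 cells), with every cell thinned to 800000 reads. Of the 59 points 51 lie below the dotted line of equal shares, as do 91.8% of all genes, and the bars cover counting error within 1 collection only.

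By share of cells at equal reads, 51 of the 59 members (86.4%) were lower in rods than in 2m cones, against 91.8% of all genes, and 8 (13.6%) were higher, against 7.61%. The intervals below cover counting error over cells of 1 collection and test no difference between cell types. Arl6 had a read in 55.2% of rods (35.7 to 73.5) and 97.1% of cones, Arl3 in 65.5% (45.7 to 82.1) and 92.2%, and Rab3a in 58.6% (38.9 to 76.5) and 98.1%. Arf4, one of the 8, had a read in 72.4% of rods (52.8 to 87.3) and 52.4% of cones, and Rab39, another, in 1 of 29 rods and 0 of 103 cones. The excess of Arf4 depended on the cut. Without thinning it was above 1 CPM in 44.8% of rods, against 52.8% and 40% of superior and inferior 2m cones. Rods had fewer genes of any kind per cell, as given above, and more Müller glia marker RNA, and the part of either in these shares was not tested.

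Of the 126 companions, 11 (8.73%) were lower in rods and 2 (1.59%) higher by the same rule, close to the 10.3% and 1.51% of all genes. They are named as a description. Rpgr, the ciliary exchange factor mutated in X-linked retinitis pigmentosa, was listed at 0 in rods, against 71.5 and 59.2 CPM in superior and inferior 2m cones. Rab3gap1, the catalytic subunit that inactivates Rab3 proteins, was at 0.463 CPM in rods, against 178 and 97.4 CPM in 2m cones. Gdi2, which keeps Rabs soluble, was at 73.3 CPM, against 213 and 270 CPM. Agap1, Gbf1, Madd, Rabepk, Rabgap1, Rims2, Smap1 and Trappc9 were the other lower ones. Higher were Cyth2, an Arf exchange factor, at 207 CPM against 57.4 and 99.0 CPM, and Bbs7, a BBSome subunit, at 838 CPM against 68.5 and 187 CPM.

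Regions of the receptor's ChAP list lay within 50 kb of the gene interval for 23 of the 59 members (39%), against 39.1% of all placed genes. The ATAC list named induced had a region there for 17 members (28.8%), against 35.5%, and the list named suppressed for 7 (11.9%), against 13.2%. Within 10 kb the counts were 12 (21.2% of all genes), 4 (17.7%) and 6 (7.68%) in the same order of lists, and inside the gene interval 8 (14.7%), 3 (11.9%) and 6 (6.23%). These shares were not tested. A ChAP region that overlapped an induced ATAC region lay near 10 members (16.9%), against 15% of all genes: Arf2, Arf3, Arf5, Arl8a, Rab11a, Rab11b, Rab27b, Rab34, Rab36 and Rab5c. None (0 of 59) had a ChAP region that overlapped a suppressed one nearby, against 0.592% of all genes.

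Within gene intervals such an overlap was seen for Rab27b and Rab5c. The share of all genes with one inside the interval was not counted, so the regions below are a description only. In Rab5c (chr11:100715003-100738215, GRCm38) the ChAP region chr11:100724968-100725267 overlapped the induced region chr11:100725002-100725646. Rab27b held 2 ChAP regions, 1 induced region that overlapped one of them and 1 suppressed region. Rab28 (chr5:41624973-41708193) held a ChAP region at chr5:41691232-41691531 and 2 suppressed regions, at chr5:41670769-41671114 and chr5:41684983-41685388. ChAP regions without an ATAC region inside the gene also lay in Arl5b, Arl6, Arl8b, Rab12 and Rab2a. The smallest deposited p near a member, 5.08e-15, belonged to a region 2689 bp from Rab40c (chr17:25879126-25879425).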

How the data were processed

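Values were deposited by the authors as CPM per gene and library, scaled to whole libraries. Per the submitters' processing notes, bcl2fastq 2, STAR 2.7.3a and MACS2 2.2.7.1 were used on GRCm38/mm10; the counting tool is not given in the sources used here. All values (100%) were whole reads within 0.1 reads, and edgeR 4.0.16 and DESeq2 1.42.0 ran on the recovered reads as alternatives. Libraries had 897893 to 3.26e+07 reads. The ChAP list carries a p-value column deposited by the authors, used only to describe regions, and whether it is adjusted is not stated.

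Mean CPM per group was tested as log2(mean CPM + 1) with limma 3.58.1 (trend) in R 4.3.3 for genes of at least 5 CPM on average over control groups, adjusted by Benjamini-Hochberg over 10136 genes. P-values measure the spread between collections, not between animals. Other comparisons used the size rule. Intervals of shares are exact (Clopper-Pearson, 95%); without molecular identifiers they cover counting error only; a count of 0 allows 3 cells of the total. Gene intervals were those of RefSeq GRCm38.p6.

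The members, roles, lists and tests were chosen with earlier results of these data known. Text names members past a test or the size rule, those of the ciliary role, the 5 of smallest zone p and the 5 of largest age difference. Others named beside them, such as Rab2a, Arl8a, Rab24 and Rab5c, were chosen after their values were seen. Scripts were tested on simulated data.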

Additional observations from a re-analysis of the deposited data

Results flagged for a closer look

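In 3 of the 23 members checked, the zone difference of P21 stood apart from those of the other 4 control collections by Dixon's criterion, which chance meets in about 1 of 20 groups of values. The share of all genes that stand apart at P21 was not computed, so these are not shown to be particular to the members. The superior minus inferior difference of Arf4 was 0.63 at P21, with the others between -0.39 and -0.19. That of Rab21 was 1.81 at P21, with the others between -0.21 and 0.21. That of Rab28 was 0.38 at P21, with the others between -0.10 and 0.03.

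Arl16 was higher in knockout than in 2m control superior cones and lower in inferior cones, with log2 ratios of 1.08 and -1.32. It also went opposite ways against P60 controls (2.07 and -1.60). In superior cones the mean was 62.7 CPM in the knockout, against 29.1 CPM in 2m controls, and in inferior cones 11.9 CPM, against 31.2 CPM. The superior knockout mean includes 1 cell at 1038 CPM, against a highest cell of 242 CPM in controls. In superior cones 13 of 50 knockout cells (26%) were above 1 CPM, against 15 of 53 (28.3%). In inferior cones 5 of 48 (10.4%) were, against 14 of 50 (28%). The difference between the zones was not tested.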

How the results depend on the processing

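Counts of members over these settings were as follows, each with the share of all genes called in the same setting. Between zones, DESeq2 raised the adjusted calls to 1 (Rab27b, 2.33%). The 7 members at an unadjusted p below 0.05 (7%) became 2 with TMM scaling (6.33%), 1 without the collection block (2.62%) and 3 with edgeR (4.07%). When 1 collection was left out they were 2 to 7, with 2 without P8 (6.57%) and 7 without P2 (7.04%). With age, 2 members passed with log values averaged over cells (3.95%), Arf3 with a difference of -2.62 and Rab6a with -3.08. The 9 at an unadjusted p below 0.05 (14.5%) became 16 that way (27.8%), 4 with TMM scaling (12.3%), 5 in superior groups alone (11.4%), 5 in inferior groups alone (11.2%), 2 with edgeR (9.19%) and 5 with DESeq2 (13%). When 1 collection was left out they were 1 to 11, with 1 without P2 (6.36%) and 11 without P8 (17.2%). Members lower without overlap numbered 13 with TMM scaling (15.3%), and higher ones 1 with averaged logs (6.51%), 7 with TMM scaling (14.8%) and 1 in inferior groups alone (7.72%). In the knockout, 1 was higher against 2m controls alone (1.05%) and 1 lower against P60 controls alone (1.9%). The 6 members above and 4 below all adult control groups became 9 (8.83%) and 3 (5.99%) without the highest cell of each group. In rods, the higher ones became 2 without the filter (4.53%), 4 when centred (5.4%) and 1 against 2m controls alone (2.01%), and the 4 lower ones became 23 with averaged logs (24.3%), 1 at 4-fold (6.51%), 11 without the filter (33.9%), 1 when centred (6.71%), 8 against 2m (13.8%) and 7 against P60 controls alone (17.4%). At P8 against P2, higher members became 3 with averaged logs (6.18%), 0 at 4-fold (1.05%) and 2 when centred (4.18%), and lower ones 0 at 4-fold (0.905%) and 4 without the filter (1063 of 10390 genes). At P21 against P8, higher ones became 0 at 4-fold (0.269%) and 2 without the filter (4.61%), and lower ones 11 with averaged logs (13.9%), 1 with a pseudocount of 10 (2.38%; Arl4a), 0 at 4-fold (0.616%), 5 without the filter (7.89%) and 1 when centred (2.79%; Arl4a). At P60 against P21, higher ones became 4 with averaged logs (4.22%) and 1 without the filter (4.44%), and lower ones 1 at 4-fold (0.0866%). At P60 against 2m controls, higher ones became 6 with averaged logs (4.75%), 1 with a pseudocount of 10 (1.45%), 0 at 4-fold (0.231%) and 5 without the filter (5.99%), and lower ones 1 without the filter (7.07%). ChAP regions lay near 12 members within 10 kb (21.2%) and 8 inside the interval (14.7%), and induced ATAC regions near 4 (17.7%) and 3 (11.9%). The cause of these moves was not tested. Centring and leaving out the highest cell were chosen after seeing the data.

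The sign held in every setting for 13 of the 23 named members between zones and for 15 of 23 with age. None of those that changed sign had passed a test. With averaged logs the zone difference was 0.0524 for Arf4, 0.36 for Arl2, -0.0388 for Rab23, 0.0637 for Rab3a and 0.0079 for Rab9b, and the age difference of Rab28 was -0.20. With TMM scaling the zone difference of Rab28 was -0.0141, and the age difference was 0.0048 for Arl2, 0.11 for Arl5a and 0.013 for Rab40c. With edgeR and DESeq2 the zone difference was -0.21 and -0.22 for Arl13b and 0.19 and 0.22 for Rab9b, and the age difference 0.069 and 0.0706 for Arl2 and 0.15 and 0.16 for Rab23. In inferior groups alone the age difference was -0.0106 for Arl10, 0.64 for Arl13b, -0.0175 for Rab28 and 0.0179 for Rab40c. Leaving out 1 collection gave zone differences of -0.32 to 0.37 for Arl13b, -0.048 to 0.46 for Rab21, -0.0070 to 0.11 for Rab28, -0.32 to 0.061 for Rab6a, -0.27 to 0.17 for Rab8a and -1.33 to 0.99 for Rab9b. It gave age differences of -1.29 to 1.86 for Arl10, -0.82 to 0.18 for Arl13b, -0.89 to 0.50 for Arl5a, -0.0881 to 0.25 for Rab28, -0.16 to 1.11 for Rab3a and -0.76 to 0.21 for Rab40c.

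No paired analysis was possible because the numbers in the labels name single cells, which pair no samples across groups; the collection block above pairs zones by age. Depth limits the sparse members, many of which were read in a few cells of a group.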
